A study of Rattus norvegicus with 6 samples.

Results

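Fat cells store energy as triglyceride in a lipid droplet, and 10 genes of that programme are described here: Lpl, Cd36, Fabp4, Adipoq, Plin1, Cebpa, Cebpb, Lipe, Pnpla2 and Cfd. They were found in the table by gene symbol and matched 11 of the 27217 entries of the expression table. Pnpla2 had 2 entries and the other genes had 1 each. RNA was sequenced from RCS cells, a chondrocyte-like line grown from a rat chondrosarcoma (3 libraries), and from rib tissue of newborn rats (3 libraries). RCS cells are a single line, and the labels give no treatment or genotype for either group and no strain, sex or exact age for the rib donors. The replicates are called biological in the series design, but which cultures or animals they came from is not given, so the p-values measure the spread between these libraries only.

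Fat cells take up fatty acids released from lipoproteins by lipoprotein lipase, carry them inward with the help of CD36 and the binding protein FABP4, and store them as triglyceride under a coat of perilipin 1. Hormones release the store through 2 lipases in turn, ATGL (gene Pnpla2) and hormone-sensitive lipase (gene Lipe). The transcription factors C/EBPα and C/EBPβ act with PPARγ to turn the programme on, and the mature cells secrete adiponectin (Adipoq) and adipsin (Cfd). Several of these genes are not private to fat cells: muscle and macrophages also express Lpl, capillary endothelium, muscle and macrophages express Cd36, and endothelium and macrophages express Fabp4.

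Promoter sequences from RefSeq (build GRCr8) were at hand for 7 of the 10 genes, and 4 are shown because they carry matches to the sequence elements searched and belong to genes with contrasting results. Each runs 5′ to 3′ from 250 bases before to 50 bases after the annotated start. Capitals mark matches on either strand to TATAAA (the TATA box), CCAAT (the CCAAT box) or TTGCNNAA (a form of the C/EBP site), and no 2 matches overlapped.

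Cebpa promoter, chr1:96896334-96896633, plus strand: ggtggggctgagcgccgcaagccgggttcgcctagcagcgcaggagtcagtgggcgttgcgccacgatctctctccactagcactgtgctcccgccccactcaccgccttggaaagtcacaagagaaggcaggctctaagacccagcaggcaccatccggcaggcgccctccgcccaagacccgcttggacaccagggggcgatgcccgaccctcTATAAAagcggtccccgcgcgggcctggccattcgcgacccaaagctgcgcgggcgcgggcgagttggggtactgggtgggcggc

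Cebpb promoter, chr3:176816755-176817054, plus strand: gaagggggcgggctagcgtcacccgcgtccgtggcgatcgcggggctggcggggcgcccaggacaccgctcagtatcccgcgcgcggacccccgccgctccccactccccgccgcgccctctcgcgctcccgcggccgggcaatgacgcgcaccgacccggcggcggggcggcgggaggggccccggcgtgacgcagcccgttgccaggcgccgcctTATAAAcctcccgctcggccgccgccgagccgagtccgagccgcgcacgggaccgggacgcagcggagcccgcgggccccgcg

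Adipoq promoter, chr11:91240120-91240419, minus strand: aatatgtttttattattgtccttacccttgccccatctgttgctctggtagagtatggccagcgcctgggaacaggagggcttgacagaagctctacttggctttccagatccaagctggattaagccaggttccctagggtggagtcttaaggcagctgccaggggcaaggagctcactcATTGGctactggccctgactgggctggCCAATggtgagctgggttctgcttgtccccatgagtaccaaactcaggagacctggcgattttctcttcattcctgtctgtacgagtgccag

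Plin1 promoter, chr1:143086099-143086398, minus strand: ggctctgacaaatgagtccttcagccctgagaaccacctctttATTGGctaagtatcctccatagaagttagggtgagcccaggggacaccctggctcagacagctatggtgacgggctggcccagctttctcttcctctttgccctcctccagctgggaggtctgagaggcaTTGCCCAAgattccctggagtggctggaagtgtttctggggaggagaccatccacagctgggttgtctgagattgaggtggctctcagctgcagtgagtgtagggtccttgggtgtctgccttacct

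Cebpa and Cebpb each carry a TATA sequence, which begins 35 bases before the start in Cebpa and 33 bases before it in Cebpb. TATAAA occurred in 3 of the 7 promoters (the other one was Cd36, on the opposite strand), against 14.3% of 27457 rat promoters of the same length. CCAAT occurred in Plin1 and Adipoq, 2 of 7, against 37.7% of all promoters. The C/EBP form occurred in Plin1 only, as TTGCCCAA beginning 77 bases before the start, against 10.5% of all promoters. A PPAR-RXR repeat, AGGTCA written out again after 1 base of any kind, occurred in none of the 7 and in 0.058% of all promoters. These are matches of letters in a window and do not show binding.

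Values below are called normalized counts: the deposited values raised from the log2 scale and read as reads scaled by a single factor for each library. The table's name carries RPKM, a value per gene length. Low values of genes lay on steps common to a library and not to a gene, which is how counts without a length term would lie, but many values were not on a step. The reading and the read numbers given below are therefore inferred. No gene's level is set against another's, except to name the genes that made up most of a list's sum. Such shares also depend on gene length. The estimated depth was 6000000 to 8520000 reads for RCS libraries and 5320000 to 7490000 reads for rib libraries. A gene listed at 0 has a normalized count of 1 at most, which is up to 1.93 reads in RCS cells and up to 1.32 in rib tissue. Each rib library held markers of several cell types, with summed normalized counts of 91542 to 153323 for 8 cartilage genes, 28640 to 51404 for 11 skeletal muscle genes and 1829 to 3887 for the 10 storage genes. In RCS cells the same sums were 50095 to 68951, 209 to 254 and 156 to 164. As the counts are read without a length term, a sum is compared between libraries only, not between lists. Most of the cartilage sum in rib tissue was 1 gene, Col2a1, at 112920, 55595 and 97595 normalized counts, against 16801, 14707 and 10780 in RCS cells. The median difference of the cartilage list was -0.12.

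The storage genes were mostly at 0 or low in RCS cells when set against rib tissue: 3 of 10 were listed at 0 in every RCS library, and 9 of 10 were lower than in rib tissue at a limma adjusted p under 0.05 (Benjamini-Hochberg over all genes). Cebpb was the exception, and none was higher. In the same fit 43.6% of 16809 genes tested were lower and 32.9% were higher, so 43.0% of all calls were higher, against 61.9% with quantile normalization, under which 8 storage genes were lower. The median difference of the 10 genes was -6.43 on the scale log2(normalized count + 1), RCS cells minus rib tissue, and that of all genes was -0.15. With quantile normalization the storage gene median was -4.91 and with cyclic loess -4.77, and its size also hangs on the pseudocount, since Cfd, at 0 in RCS cells, is one of the middle pair. Counts and medians of the gene lists below stand against these same values. In bulk tissue fewer cells of a type and less RNA per cell cannot be told apart. Of the 10 genes, 5 were under 1 in at least 1 RCS library and entered the test through rib tissue, so they had next to no room to come out higher. Among the 5 genes at 1 or more in all 6 libraries, 4 were lower, against 34.6% of 13381 such genes. The groups did not overlap at 9 of 10 genes, against 78.9% of all genes tested.

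**Figure D1:**
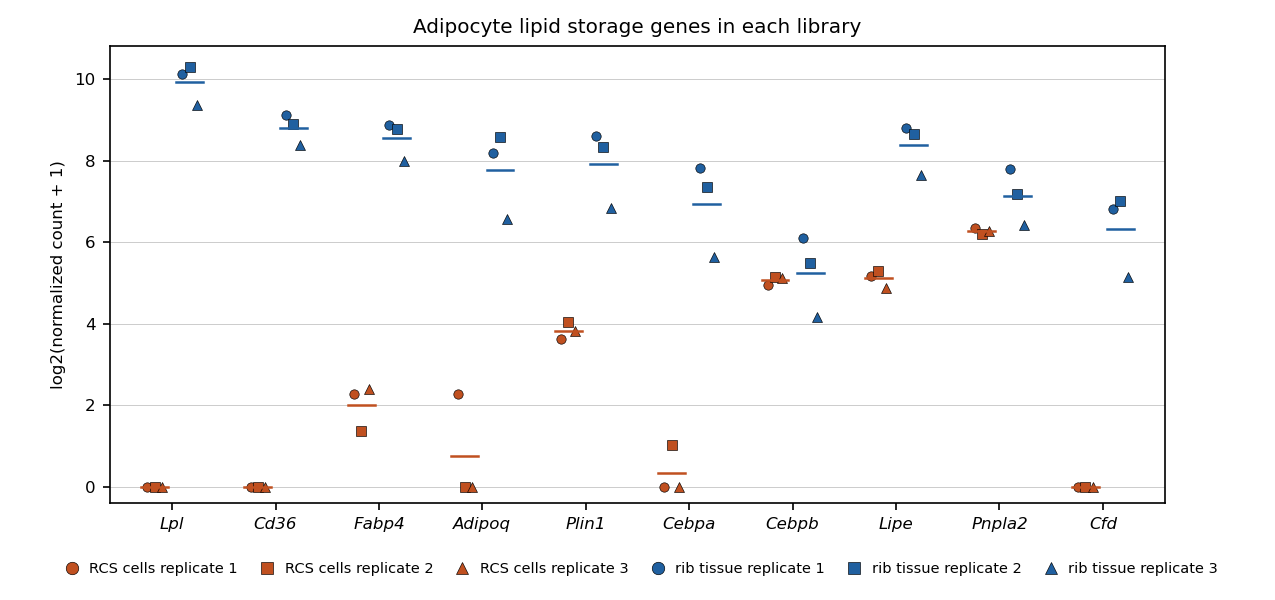
Level of each storage gene, log2(normalized count + 1), in 3 RCS libraries (left, orange) and 3 rib libraries (right, blue), with the mean as a bar and the replicate number as the marker shape. Lpl, Cd36 and Cfd sit at 0 in every RCS library, and rib replicate 3 is the lowest rib library for all 10 genes.

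Lpl, Cd36 and Fabp4 bring fatty acids into the cell. Lpl, the secreted lipase that acts on circulating triglyceride (ENSRNOG00000012181), was listed at 0 in RCS cells replicates 1, 2 and 3, against 1109, 1266 and 656 normalized counts in rib tissue replicates 1, 2 and 3. Cd36, the fatty acid translocase (ENSRNOG00000040108), was also listed at 0 in all 3 RCS libraries, against 557, 479 and 330 in the rib libraries. Neither gene was listed above 0 in any RCS library and both were plain in every rib library, so no fold change is given.

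Fabp4, the fatty acid binding protein of fat cells (ENSRNOG00000010805), had 3.81, 1.56 and 4.25 normalized counts in RCS cells, against 468, 439 and 251 in rib tissue. The RCS values came to 7, 3 and 6 reads. The groups were far apart, at 2.004 ± 0.57 for RCS cells and 8.54 ± 0.49 for rib tissue as log2(normalized count + 1) (mean ± SD, n = 3 libraries each), a difference of -6.54 (SE 0.35) with a limma Benjamini-Hochberg adjusted p of 9.13e-07. With so few reads the size depends on the pseudocount, and over the 15 alternatives it ran from -7.03 to -4.86.

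Relatives of the uptake genes did not all follow them. Of 12 genes that handle lipoprotein lipase or take up fatty acids, 4 were higher in RCS cells and 8 were lower (median difference -0.84). Gpihbp1, the endothelial anchor that holds lipoprotein lipase on capillaries, stood at 0 throughout RCS cells and had 130, 100.01 and 91.7 normalized counts in rib tissue. Angptl4, a secreted inhibitor of that lipase, was lower in RCS cells (12.6, 8.01 and 18.4, against 127, 152 and 176 in rib tissue), with 11.4-fold more in the tissue (difference -3.51, against -2.50 with quantile normalization and -2.83 with a pseudocount of 10). Acsl1, which activates fatty acids by joining them to coenzyme A, was higher in RCS cells (1913, 1785 and 1689.5, against 1492, 1431 and 1021), a 1.38-fold difference that was not called without RCS cells replicate 1. The endocytic receptor gene Lrp1 was 6.10-fold higher in rib tissue (difference -2.61, against -1.80 with quantile normalization).

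Other fatty acid binding proteins moved in opposite directions. Of 7 such genes 5 were tested, of which Fabp5 was higher in RCS cells and 4 were lower (median difference -3.42). The median was -0.77 with quantile normalization and -1.12 with cyclic loess, with 3 lower in both and also without rib replicate 3. The gene at the middle was Fabp1, named for that alone, which was at 0 throughout RCS cells. Fabp5, the epidermal form, had 289, 251 and 238 normalized counts in RCS cells, against 166, 162 and 149.95 in rib tissue. The excess in RCS cells was 1.62-fold (limma, Benjamini-Hochberg adjusted p 0.000393). Fabp3, the form of heart and skeletal muscle, had 4.23, 3.47 and 11.6 in RCS cells, against 302, 314 and 194 in rib tissue.

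Plin1, the perilipin that coats the large droplet of fat cells and guards it from lipases (ENSRNOG00000015086), was low but measurable in RCS cells. It had 11.2, 15.4 and 13.2 normalized counts there, against 390.2, 324 and 112 in rib tissue. Every RCS library stood below every rib library, and Plin1 was 17.2-fold higher in rib tissue (difference -4.10, SE 0.43, limma Benjamini-Hochberg adjusted p 4.02e-05). The difference was -3.18 with quantile normalization and -3.45 with a pseudocount of 10, and its adjusted p (limma, Benjamini-Hochberg) ran from 7.93e-07 to 0.00128 over 15 alternatives.

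Genes of the droplet coat and its formation were divided. Of 12 tested, 2 passed as higher in RCS cells, 9 passed as lower and 1 passed neither way (median difference -2.95). Among the 9 lower genes, 3 were at 0 in every RCS library. With quantile normalization the counts were 4 higher and 6 lower (median -1.93), and 1 was higher with median scaling and with cyclic loess. Plin4, a perilipin of white fat cells, had 2.39, 6.20 and 8.28 normalized counts in RCS cells, against 428, 285 and 126 in rib tissue. Cidec, which fuses droplets into a single large one, had 7.03, 4.05 and 8.08 in RCS cells, against 123.3, 131 and 15.0 in rib tissue, so its rib replicate 3 stood near the RCS libraries. Its call (difference -3.16, SE 0.76) was lost under quantile normalization (-1.55), and the difference was -1.87 with cyclic loess and -4.16 without rib replicate 3. Plin2, the coat of droplets in most cell types, stood at 47.8, 49.4 and 52.6 in RCS cells, against 316, 334 and 363 in rib tissue. It was thus 6.64-fold higher in the tissue. Plin3, a perilipin found in most cells that is named here after its values were seen, was 1.41-fold higher in RCS cells (455, 452 and 435, against 328, 318 and 306). Cav1, the caveolin of the cell surface, had 7.89, 5.71 and 8.503 in RCS cells, against 1070.5, 1176 and 798 in rib tissue, while its partner Cavin1 differed by -0.07, a direction that turned under quantile normalization (0.27, called) and cyclic loess (0.05).

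The 2 lipases of triglyceride breakdown were both expressed in RCS cells. Lipe, hormone-sensitive lipase (ENSRNOG00000020546), had 34.8, 38.1 and 28.5 normalized counts in RCS cells, against 447, 401 and 200.3 in rib tissue. Every RCS library was below every rib library, with Lipe 9.57-fold higher in rib tissue (difference -3.26, SE 0.29, limma Benjamini-Hochberg adjusted p 1.61e-05).

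Pnpla2, adipose triglyceride lipase, which takes the first fatty acid from triglyceride, had the smallest difference of the genes called. Its entry ENSRNOG00000047551 had 80.2, 72.1 and 76.7 normalized counts in RCS cells, against 222, 143 and 84.2 in rib tissue. No RCS value reached a rib value, but rib replicate 3 lay close above the RCS libraries. The difference was -0.85 (SE 0.31, 95% interval -1.56 to -0.15), 1.81-fold higher in rib tissue, with a limma Benjamini-Hochberg adjusted p of 0.0317 that ran from 0.00271 to 0.369 over 15 alternatives. The call was lost under quantile normalization (-0.38) and without any 1 library other than rib replicate 3, and the difference was -1.21 without rib replicate 3. A second entry named Pnpla2, ENSRNOG00000018736, was listed at 0 in all 6 libraries. How reads matching both entries were counted is not given in the sources used here, so the level of Pnpla2 is uncertain.

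**Figure D2:**
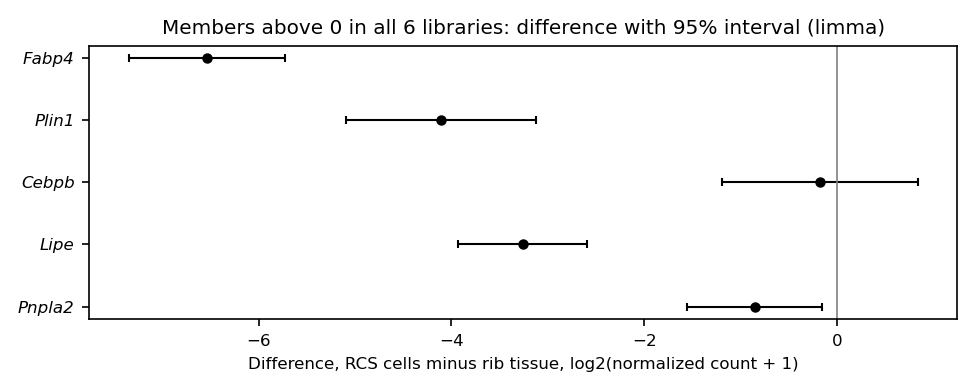
Difference in log2(normalized count + 1), RCS cells minus rib tissue, with its 95% interval from limma, for the 5 storage genes at 1 or more in all 6 libraries. The intervals of Fabp4, Plin1, Lipe and Pnpla2 lie below 0, and that of Cebpb spans it.

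Other genes of triglyceride breakdown were also divided. Of 9 tested, 2 passed as higher in RCS cells and 6 as lower, and 1 passed neither way (median difference -4.14, or -2.58 with quantile normalization). Among the 6 lower genes, 3 were at 0 in every RCS library. Mgll, monoglyceride lipase, which acts on the last fatty acid, had 2.04, 1.52 and 1.69 normalized counts in RCS cells, against 708, 691 and 351 in rib tissue. G0s2, an inhibitor of ATGL, also stood at 0 throughout RCS cells and had 173, 177 and 138 in rib tissue. Abhd5, the coactivator of ATGL, was higher in RCS cells at 300.2, 310.0 and 348, against 241, 261 and 149 in rib tissue. This 1.51-fold difference (limma, Benjamini-Hochberg adjusted p 0.0241) was not called under cyclic loess (0.38) or without RCS cells replicate 2 (0.61) or 3 (0.53). Prkar2b, a regulatory subunit of protein kinase A abundant in fat cells, was 1.555-fold higher in RCS cells.

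Cebpa and Cebpb, the C/EBP factors of fat cell differentiation, differed in their pattern. Cebpa (ENSRNOG00000010918), which maintains the mature fat cell, was listed at 0 in RCS cells replicates 1 and 3 and at 1.04 normalized counts, or 2 reads, in replicate 2. In rib tissue it had 225, 162 and 48.7 normalized counts. The groups stood wide apart, and rib replicate 3 lay well below the other rib libraries.

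Cebpb (ENSRNOG00000049393), which acts early in differentiation and also in many other cell types, had 29.8, 34.3 and 33.5 normalized counts in RCS cells, against 67.1, 43.5 and 16.9 in rib tissue. RCS libraries lay between the rib libraries, below rib replicates 1 and 2 and above rib replicate 3. The difference was -0.18 (SE 0.44, 95% interval -1.19 to 0.84, limma Benjamini-Hochberg adjusted p 0.726). It turned to 1.31 under quantile normalization and 0.44 under cyclic loess, without passing the test (limma, Benjamini-Hochberg adjusted p 0.0619 and 0.398). Without rib replicate 3 Cebpb was lower in RCS cells (-0.72, limma Benjamini-Hochberg adjusted p 0.029), and without rib replicate 1 the difference was 0.24. Over the 15 alternatives that p ran from 0.029 to 0.926.

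Partners and namesakes of these factors were mixed in RCS cells. Pparg, the nuclear receptor at the centre of fat cell differentiation, had 147, 150.3 and 177 normalized counts in RCS cells, against 142, 143 and 48.9 in rib tissue. Every RCS library was above every rib library, narrowly above rib replicates 1 and 2. The difference of 0.65 (SE 0.38, 95% interval -0.22 to 1.53) did not pass the test (limma, Benjamini-Hochberg adjusted p 0.146) and was 0.15 without rib replicate 3. Cebpd, an early factor beside Cebpb, had 42.7, 52.9 and 47.5 in RCS cells and 81.8, 52.7 and 42.0 in rib tissue. Its difference of -0.25 turned under quantile normalization (0.91, called). Beside Cebpd, the 3 other genes tested in a list named for the C/EBP family were Cebpg, Cebpz and Ddit3. All 3 were higher in RCS cells (median over the 4 genes 0.82), Cebpg by 1.71-fold and Cebpz by 1.83-fold. Cebpz shares the name and is not taken here as a C/EBP protein. Ddit3 is named after its values were seen. Of 13 adipocyte transcription factors, 8 were lower in RCS cells and 5 passed neither way (median -0.75), and 10 were lower with the replicate block. Under quantile normalization 1 was higher and 5 lower. Of the 13, 3 stood at 0 throughout RCS cells and are named for that: Ebf1 had 384, 567 and 471 normalized counts in rib tissue, Zfp423 had 422, 352 and 276, and Mlxipl had 80.02, 69.6 and 18.1. Rxra, the partner receptor of PPARγ, was 1.53-fold higher in rib tissue, and Srebf1, a regulator of fatty acid synthesis, differed by -0.23 without passing the test (0.11 under quantile normalization, and called at -0.36 without rib replicate 2).

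Adipoq and Cfd encode proteins that fat cells secrete. Adipoq, adiponectin, a hormone that raises insulin sensitivity (ENSRNOG00000001821), had 3.80 normalized counts, or 6.98 reads, in RCS cells replicate 1 and was listed at 0 in replicates 2 and 3. In rib tissue it had 291, 379 and 94.5. Cfd, adipsin, the serine protease of the alternative complement pathway (ENSRNOG00000033564), was listed at 0 in every RCS library, against 111, 128 and 34.5 in rib tissue. Neither gene overlapped between the groups, and for both the lowest rib value was replicate 3.

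Other secreted products and their receptors differed in direction. Of 9 genes tested in the adipokine and secreted protein list, 8 passed as lower in RCS cells and 1 passed neither way (median -4.49, or -3.14 with quantile normalization). Of the 8, 4 were at 0 in every RCS library and could not come out higher. Another of the 8 was Lpin1, an enzyme gene that is counted again below among the synthesis genes and is not taken here as a secreted product. Lep, the hormone leptin, was at 0 throughout RCS cells and had 54.2, 50.8 and 3.0 normalized counts in rib tissue. Nampt, an enzyme of NAD synthesis that is also secreted, differed by -0.16 without passing the test, and was called lower under cyclic loess (-0.33), with array weights (-0.25) and without rib replicate 3 (-0.25). The adiponectin receptor gene Adipor1 was 1.30-fold higher in RCS cells (1040.2 to 1076 normalized counts, against 787 to 845). Adipor2 differed by 0.03 (SE 0.11), a direction that turned under median scaling (-0.02) and with array weights (-0.01). Of 3 receptor genes, 1 passed as higher, 1 as lower and 1 neither way (median 0.03). The lower one was Cdh13, with 1.09, 2.59 and 0 normalized counts in RCS cells, against 570, 615 and 349 in rib tissue.

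Genes that make fatty acids and triglyceride did not move one way. Of 15 tested, 5 passed as higher in RCS cells, 5 as lower and 5 neither way (median difference 0.02), against 7 higher and 4 lower under quantile normalization and 6 higher and 4 lower under cyclic loess. Fasn, fatty acid synthase, had 3800.4, 3018 and 2762 normalized counts in RCS cells, against 3231, 2934 and 3168 in rib tissue. The groups overlapped, and the difference of 0.03 (SE 0.13) turned under median scaling (-0.03) but passed the test as higher with quantile normalization (0.87) and cyclic loess (0.38). Scd, which puts a double bond into fatty acids, differed by -0.22 (SE 0.12) without passing the test, and by 0.45 under quantile normalization, called. Lpin1, a phosphatidate phosphatase on the way to triglyceride, was 3.12-fold higher in rib tissue. The largest differences of the list were those of Pck1 and Gpd1. Pck1 was at 0 throughout RCS cells and had 366, 364 and 108 normalized counts in rib tissue. Gpd1 had 4.90, 2.72 and 3.03 in RCS cells, against 1115, 969 and 355 in rib tissue.

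**Figure D3:**
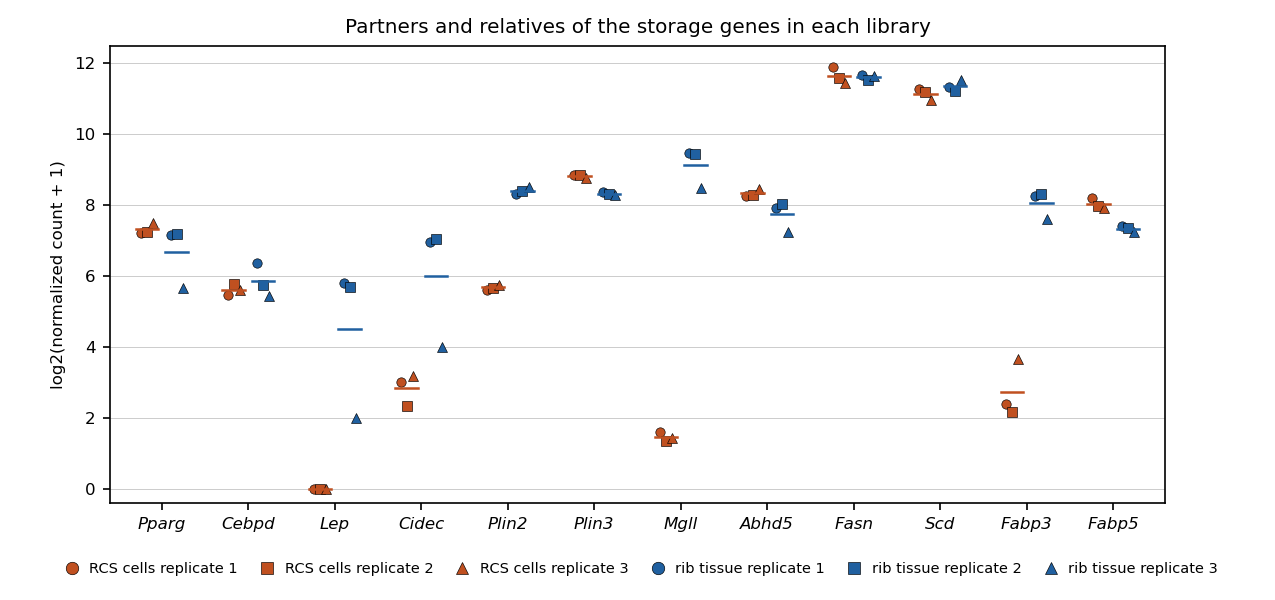
Level, log2(normalized count + 1), of 12 partners and relatives of the storage genes in 3 RCS libraries (left, orange) and 3 rib libraries (right, blue), with the mean as a bar. Lep is at 0 in every RCS library and Mgll below 2, while Pparg, Fasn and Scd stand well above 0 in all 6 libraries.

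The 3 rib libraries differed among themselves in every storage gene. Rib replicate 3 was the lowest of the 3 for 10 of 10 genes, against 38.9% of 14548 genes tested with a rib mean of at least 10 normalized counts. Its value divided by the mean of rib replicates 1 and 2 had a median of 0.389 over the 10 genes and of 0.983 over all genes. That ratio was at most 0.5 for 7 of 10 storage genes, against 5.04% of all genes. The lowest ratios were those of Cebpa (0.252), Adipoq (0.282), Cfd (0.289), Cebpb (0.306) and Plin1 (0.315). Pnpla2 (0.462) and Lipe (0.472) came next, and Lpl (0.553), Fabp4 (0.554) and Cd36 (0.637) were the least reduced. Between the other rib libraries, replicate 1 was the higher for 7 genes and replicate 2 for 3 (Lpl, Adipoq and Cfd).

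Some further adipocyte genes had low values in the same library. The ratio was 0.0572 for Lep, 0.118 for Cidec, 0.344 for Pparg, 0.353 for Plin4 and 0.502 for Mgll. It was 1.12 for Plin2, 1.03 for Fasn, 1.19 for Scd and 1.26 for Angptl4, so not every lipid gene was low there. Over whole lists of other fat cell and lipid genes the median ratio lay between that of the storage genes (0.389) and that of all genes (0.983). It was 0.713 for adipocyte transcription factors (range 0.243 to 1.15) and 0.832 for the adipokine and secreted protein list, Lpin1 included (0.0572 to 1.64). For the droplet coat list it was 0.749 (0.118 to 1.29), and for triglyceride breakdown 0.594 (0.191 to 1.24). Brown fat genes came close to the storage genes, at 0.416 (0.279 to 1.08). The synthesis list (0.931) and the uptake list (0.982) came close to all genes.

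Markers of other cell types that express some storage genes were also lower at the median in rib replicate 3, by less than the storage genes. Rib replicates 1 and 2 did not rank alike across the lists, as the sums below show. The median ratio was 0.520 for 11 macrophage genes (range 0.351 to 1.07), 0.606 for 11 skeletal muscle genes (0.433 to 0.686) and 0.660 for 10 endothelial genes (0.596 to 0.803). It was 0.888 for 9 fibroblast genes (0.559 to 1.14) and 1.33 for 8 cartilage genes (1.12 to 1.55). Summed normalized counts in rib replicates 1, 2 and 3 were 3887, 3764 and 1829 for storage genes, 4406, 5144 and 3249 for endothelial genes and 2781, 2812 and 1569 for macrophage genes. In RCS cells the sums were 717 to 742 for endothelial genes and 84.7 to 96.4 for macrophage genes. At 0 throughout were 5 of 10 endothelial genes (Cdh5, Kdr, Tie1, Emcn and Cldn5) and 6 of 11 macrophage genes (Cd163, Aif1, Adgre1, C1qa, C1qb and C1qc). Most of the endothelial sum was Vwf (452, 428 and 388) and Egfl7 (255, 270 and 278). Vwf differed from rib tissue by -0.20 without passing the test, and Egfl7 was lower by -0.88. Most of the macrophage sum was Cd14 (56.7, 57.9 and 57.1), which was lower by -0.64. The part of these cell types in the storage gene values was not tested.

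**Figure D4:**
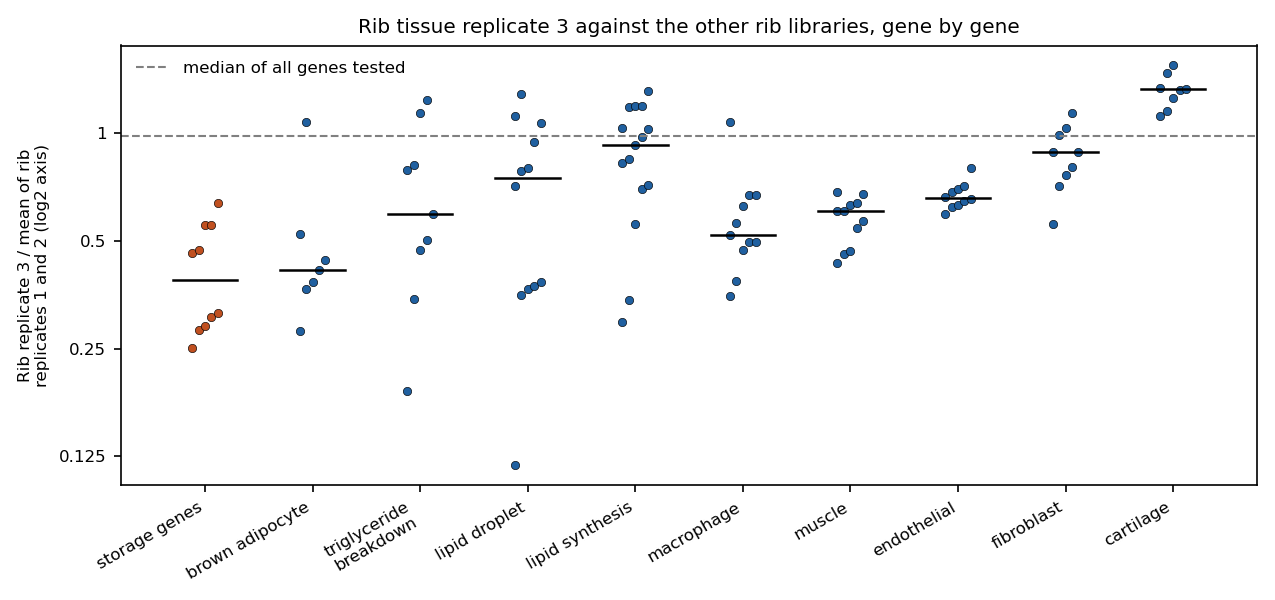
Value in rib replicate 3 divided by the mean of rib replicates 1 and 2, on a log2 axis, for each gene of 10 lists with a rib mean of at least 10 normalized counts; black bars are list medians and the dashed line is the median of all genes tested. The storage genes (orange) lie between 0.252 and 0.637, and all cartilage genes lie above 1.

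Between RCS cells and rib tissue, the marker lists of cells other than chondrocytes were lower in RCS cells as well. Lower were 9 of 10 endothelial genes (median -6.83, or -5.59 with quantile normalization), 11 of 11 macrophage genes (-6.59, or -5.19), 11 of 11 muscle genes (-9.85, or -8.22) and 8 of 9 fibroblast genes (-7.13, or -6.15), with none higher. Of 8 cartilage genes, 2 were higher, 2 lower and 4 neither (median -0.12), against 5 higher and 2 lower under quantile normalization and cyclic loess. All 6 tested genes of preadipocytes and mesenchymal progenitors were lower (median -6.41, or -5.35 with quantile normalization). Of these, 3 were at 0 in every RCS library, which left them no room to come out higher. Dlk1, a surface protein of preadipocytes, was listed at 0 in RCS cells replicates 1 and 2 and at 1.40 normalized counts in replicate 3, against 1819.8, 1439.5 and 1242 in rib tissue. The growth factor receptor gene Pdgfra had 34.6, 32.4 and 33.8 in RCS cells, against 1433, 1326 and 1109.9 in rib tissue.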

How the data were processed

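RNA sequencing libraries of RCS cells (3) and neonatal rib tissue (3) were analysed, grouped by their titles. The authors deposited log2 values in 1 table. Low values of many genes lay on multiples of 1 step per library (0.519 to 0.709 in RCS cells, 0.758 to 1.03 in rib tissue), so they were read as log2 of reads divided by a library factor, although the table's name carries RPKM. Only 39.5% to 55.6% of values up to 10 reads were within 0.01 of a whole read, so no count model was used. The submitters' processing notes list CASAVA 1.8, DESeq and the build rn5. Aligner, counting rule and strand use: not given in the sources used here.

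The test, on log2(normalized count + 1), was limma's (3.58.1, run in R 4.3.3; intensity trend, two-sided, Benjamini-Hochberg over 16809 genes at 1 or more in at least 3 of 6 libraries), after the code was tested on simulated data. The 10 members and 16 other lists were chosen with earlier results of these data known. They hold 162 names, of which 152 matched by symbol, 5 by Entrez identifier and 5 not at all. Genes named are the members, the 2 of each list other than marker lists with the highest mean, 16 partners where tested, and the 3 genes nearest in pattern to 2 members. Outside that rule, Plin3, Ddit3, Fabp1, Ebf1, Zfp423, Mlxipl and the endothelial and macrophage markers at 0 in RCS cells are named after their values were seen. The same holds for Vwf, Egfl7, Cd14, Col2a1, Cdh13, Pck1 and Gpd1. Alternatives were 3 other scalings, 2 filters, 2 pseudocounts, array weights, a replicate block and leaving out each library. Without a filter, genes at 0 in all libraries could not be fitted. No library pair was identical (0 pairs).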

Additional observations from a re-analysis of the deposited data

How the results depend on the processing

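Of 15 alternatives, none turned or ended the call of Lpl, Cd36, Fabp4, Adipoq, Plin1, Cebpa, Lipe or Cfd. The count of members called lower was 8 to 10, with 8 under quantile normalization, without rib tissue replicate 1 or 2 and without each RCS library, and 10 without rib tissue replicate 3. With the replicate block (same-numbered libraries deviated together at r = 0.064, -0.076 and 0.047 over 16809 genes, so the numbers were not taken as pairs) 5536 genes were higher and 7340 lower, and 9 members were lower.

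Of all genes called, 43.0% were higher in RCS cells (5536 higher, 7324 lower), against 61.9% under quantile normalization (8000 and 4924), where the median difference moved from -0.15 to 0.32, and 50.1% under cyclic loess (median 0.03). Cebpb turned to 1.31 under quantile normalization and 0.44 under cyclic loess. Other turns under quantile normalization were Cebpd (0.91), Srebf1 (0.11), Cavin1 (0.27) and Scd (0.45). Cyclic loess turned Cavin1 (0.050) and Scd (0.059), median scaling turned Fasn (-0.026) and Adipor2 (-0.019), and array weights turned Adipor2 (-0.013). Leaving out 1 library gave ranges of -0.72 to 0.24 for Cebpb, -1.21 to -0.52 for Pnpla2, -0.46 to 0.015 for Cebpd, -0.18 to 0.054 for Cavin1, -0.11 to 0.12 for Fasn -0.36 to -0.15 for Srebf1 and -0.090 to 0.11 for Adipor2. The limma adjusted p of Pnpla2 (Benjamini-Hochberg) was 0.0601, 0.0802 and 0.0765 without RCS cells replicates 1, 2 and 3, and 0.0905 and 0.11 without rib tissue replicates 1 and 2. Of 509 values for 34 other named genes, 483 kept direction and call, 5 lost the call, 6 gained one and 15 turned. The 34 leave out the genes nearest in pattern and, apart from Plin3, those named after their values were seen. The causes were not tested. At this depth a gene listed at 0 may have had up to 1.93 reads.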

Other observations

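Genes known from brown fat, which burns fatty acids for heat, were also low or absent in RCS cells. All 8 tested were lower than in rib tissue (median -4.85), and 6 of 8 were under quantile normalization (median -3.37) and cyclic loess (median -3.53). Of the 8, 4 were at 0 in every RCS library and so could not come out higher. Ucp1, the uncoupling protein of brown fat, stood at 0 throughout RCS cells and had 42.9, 14.4 and 11.0 normalized counts in rib tissue. Cox8b, a cytochrome oxidase subunit of muscle and brown fat, had 1.56, 1.5 and 0 in RCS cells, against 195, 173 and 81.5 in rib tissue. Cpt1b, which carries fatty acids into mitochondria in muscle and brown fat, had 23.4, 25.7 and 24.7, against 991, 857 and 483. The median ratio of rib replicate 3 to the mean of the other rib libraries was 0.416 over 7 of these genes.

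Among 14732 other genes with a symbol, those nearest to Lpl in pattern were Tnxb, Cd93 and Etl4, at a root mean square distance of 0.058, 0.129 and 0.148 log2 units over the 6 libraries, each gene centred on its mean. All 3 were listed at 0 in every RCS library. These genes were picked for their likeness to Lpl over the same libraries, so the shared pattern is not a separate result. Tnxb had 1090, 1131 and 638 normalized counts in rib tissue. Nearest to Cebpb were Tuba4a, Cryba4 and Tmc6, at 0.230, 0.244 and 0.260. Tuba4a had 456, 465 and 472 normalized counts in RCS cells, against 700.1, 504 and 297 in rib tissue. It thus lay, like Cebpb, below 2 rib libraries and above rib replicate 3, a likeness for which it was picked.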
